A study of Homo sapiens with 148 samples.

Results

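Most ZNF genes encode C2H2 zinc finger proteins. The 195 described here are those with a symbol of the form ZNF plus a number, with or without a closing letter, that reached 20 TPM in at least 1 of 6 stages of pancreatic differentiation. They were selected on the same mean values that are described below, out of 531 such names in a table of 49085 gene names, so their levels and ratios are a description and not a test. RNA-seq was performed on H9 cells, an established human embryonic stem cell line (hESCs, wild type), and on cells differentiated from them in vitro: definitive endoderm (DE, day 4), primitive gut tube-like cells (PGT, day 7), pancreatic progenitors (PP, day 14), a stage labelled PH that is not defined in the sources used here, and pancreatic islet organoids made to contain β cells (SC-β organoids, day 35). All stages share the 1 parental line and genotype, and each had 2 RNA-seq samples, 12 of the 148 samples of the series. The question was which of these genes were higher, lower or steady from stage to stage, and whether those in the chromosome 19 clusters moved together.

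The C2H2 zinc finger is a short fold held by a zinc ion, and tandem arrays of fingers read DNA sequence. Many human ZNF genes also carry a KRAB box, which recruits the corepressor TRIM28 and through it the histone methyltransferase SETDB1, HP1 proteins and histone deacetylases, and is best known for silencing transposable elements under H3K9me3. The family grew by tandem duplication, most of all on chromosome 19, so neighbours are often close paralogs. ZNF genes without a KRAB box include developmental transcription factors, promoter-bound activators and RNA-binding proteins.

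TPM, a relative transcript abundance, corrects a gene's reads for its length and brings all samples to a common sum, so levels of different genes may be set side by side. Where 6 values follow a gene or a sum, they are in the order hESCs, DE, PGT, PP, PH, SC-β organoids. The deposited table gives the authors' mean over the replicates of each stage, with no value per replicate. No error, n or test therefore stands beside any value, the depth behind a value is unknown, and whether a difference exceeds the spread between replicates cannot be said. Ratios are log2((TPM + 1)/(TPM + 1)), which understate the change of low genes, and a gene was counted as higher or lower from 2-fold on that scale. A few structural RNAs took between 31.8% of the total in DE and 50.9% in PH, and all other values move with that share. Scaling each stage by its median ratio over 13938 names shifted the log2 ratio of DE to hESCs by 0.48, of SC-β organoids to hESCs by 0.52 and of SC-β organoids to PH by 0.50. Most counts of genes past 2-fold are therefore given under that rescaling as well, and called rescaled.

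The stages were checked against their markers. POU5F1, the core pluripotency factor, went from 1449 TPM in hESCs to 0.543 TPM by the PP stage, and SOX17, a definitive endoderm factor, was at 96.1 TPM in DE. PDX1, the pancreatic master regulator, reached only 3.17 TPM in PP, and the organoids held it at 1.57 TPM. INS (insulin) was at 298 TPM and GCG (glucagon) at 2793 TPM in SC-β organoids. The PH stage held FOXA2 at 1.17 TPM and PDX1 at 0.0173 TPM and was high in a list of 5 neural progenitor markers, whose summed level was 177 TPM. The same sum was 13.7 TPM at PP and 22.8 TPM in the organoids. All 5 were at 1 TPM or more in PH, with none at 0. Mesenchymal markers, also a list of 5, summed to between 10.1 and 13.4 TPM up to PGT and 60.3 TPM in PP, and were at 474 TPM in PH and 1181 TPM in the organoids, with all 5 detected at 1 TPM from PP on. These are mixed bulk samples, in which fewer cells of a type and less RNA per cell cannot be told apart.

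As a set, the 195 genes were lowest in hESCs, and the order of the later stages depended on the scale. Their summed level was 3686, 6330, 6244, 4811, 4846 and 5952 TPM. The median gene was at 14.05, 25.2, 23.5, 19.3, 19.5 and 24.97 TPM. From DE on the sum was 1.72, 1.69, 1.31, 1.31 and 1.61 times that of hESCs. After rescaling it was 1.23, 1.34, 1.10, 1.29 and 1.12 times, which put PGT and PH above DE and SC-β organoids, and without the structural RNAs it was 1.54, 1.64, 1.38, 1.63 and 1.49 times. The lowest stage was hESCs for 122 of the 195 and PH for 54. Among all 8980 names that reach 20 TPM in a stage, the lowest stage was hESCs for 36.4% and PH for 41.6%, against 62.6% and 27.7% of the ZNF genes.

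**Figure D1:**
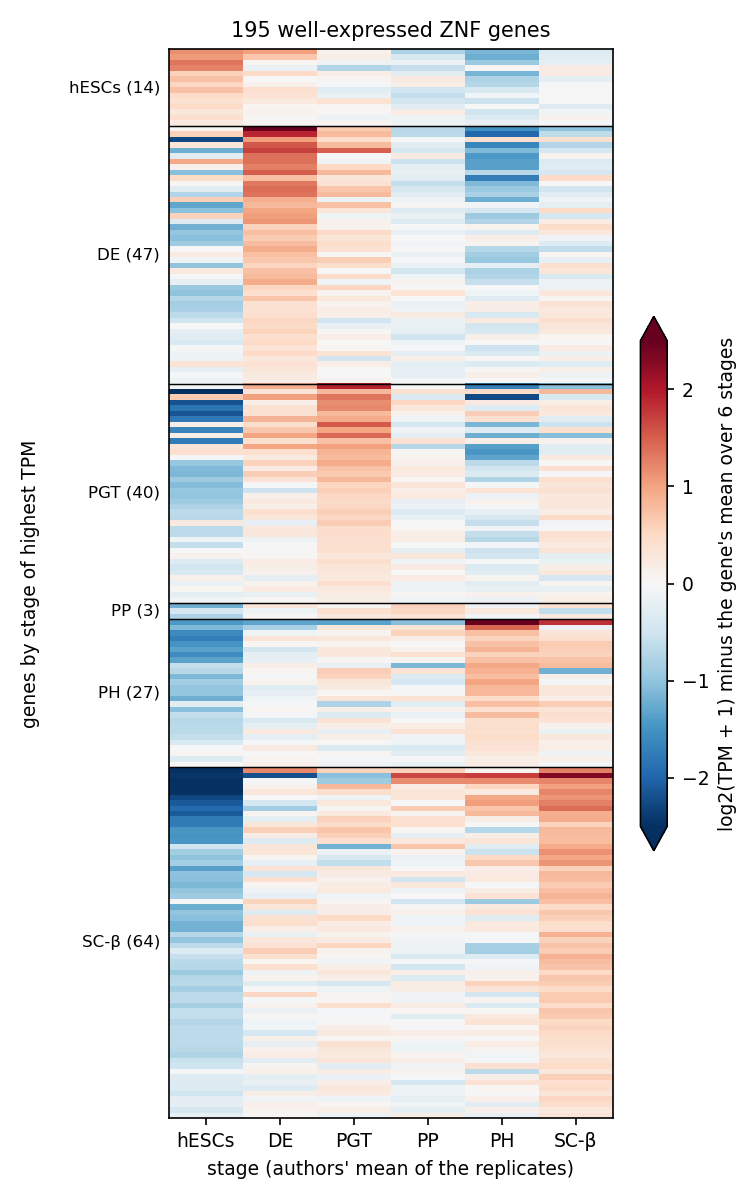
Each row is 1 of the 195 ZNF genes and each column a stage; colour is log2(TPM + 1) minus the gene's own mean over the 6 stages, and rows are grouped by the stage of highest TPM and ordered within it by their span. The SC-β group of 64 genes and the DE group of 47 are the largest, and the hESCs column is the bluest for most rows outside its own group of 14. After median-ratio rescaling the largest group is PH with 66 genes, a count with no share of all names beside it.

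The stage of the highest level was SC-β organoids for 64 genes, DE for 47, PGT for 40, PH for 27, hESCs for 14 and PP for 3. The 24.1% of members highest in DE equal the share of all names at 20 TPM. SC-β organoids took 32.8% of the members beside 24.8% of the names, PGT 20.5% beside 13.4%, PH 13.8% beside 11.7%, hESCs 7.18% beside 20.7% and PP 1.54% beside 5.33%. After rescaling, 66 genes were highest in PH, 44 in PGT, 28 in DE, 25 in hESCs, 24 in SC-β organoids and 8 in PP. No share of all names is given on that scale, so whether this shift is particular to the ZNF genes cannot be said. The limit of 20 TPM was reached at a single stage by 45 genes, at 2, 3, 4 or 5 stages by 32, 26, 25 and 36, and at all 6 by 31.

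The first step, from hESCs to DE, moved the most genes of any consecutive pair of stages. In DE 77 of the 195 (39.5%) were at least 2-fold higher than in hESCs and 2 were lower, whereas among all names at 20 TPM in a stage 22.5% were higher and 6.27% lower. After rescaling the counts were 42 higher and 3 lower for the ZNF genes, and 1055 higher and 1196 lower for the 8980 names. The median log2 ratio of the ZNF genes was 0.81, and 0.35 after rescaling, beside 0.36 and -0.07 for all names. Only 58 of the 195 were at 20 TPM in hESCs, so many were included through a later stage. Of the 31 genes at 20 TPM in every stage, 5 were higher and none lower, or 3 and none after rescaling. Among the 3264 names of that kind 299 were higher and 133 lower, or 74 and 457 after rescaling. The median of the 31 was 0.28 and became -0.19 after rescaling, beside 0.16 and -0.31 for those names. Over all 531 ZNF names, with no minimum level, 159 (29.9%) were higher and 5 (0.942%) lower, beside 12.9% and 2.55% of all 49085 names. After rescaling the counts were 91 and 13, beside 3591 and 2365 of the 49085 names.

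The genes with the largest ratios in this step all matched the wider of 2 KRAB patterns explained further on, and all but ZNF558 lie in gene clusters. ZNF680, a KRAB gene on chromosome 7, was listed at 0 in hESCs, so no fold is given; it was at 28.7, 18.1, 18.2, 12.9 and 29.96 TPM from DE on. ZNF138, of the same cluster, was at 2.55, 34.3, 21.9, 15.5, 22.3 and 21.6 TPM over the stages, a log2 ratio of 3.31 in DE. Both genes were lowest in hESCs. ZNF558, a KRAB gene of chromosome 19, was at 2.16, 26.6, 37.6, 27.4, 29.5 and 37.3 TPM. ZNF611 was at 9.35, 77.98, 67.00, 16.7, 10.2 and 16.8 TPM across the 6 stages, so that its high level was held in DE and PGT only. ZNF562 was at 1.05, 13.3, 22.4, 14.1, 18.1 and 25.9 TPM in stage order, and was highest in SC-β organoids.

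The 2 genes that were lower in DE are the 2 members on a list of 4 genes studied in pluripotency. That list was chosen with earlier results of these data known, so the match is a description. ZNF398, a KRAB gene known for maintaining the pluripotent state downstream of TGF-β signalling, was at 36.7, 13.3, 8.57, 9.66, 15.3 and 17.3 TPM over the stages. ZNF483, which carries SCAN and KRAB domains, was at 45.9, 18.2, 16.3, 15.8, 8.75 and 14.8 TPM. Both were highest in hESCs and stayed under that level at every later stage. ZNF331, an imprinted gene, followed at 28.1, 16.2, 17.3, 19.4, 9.21 and 13.7 TPM across the 6 stages but did not reach 2-fold in DE, with a log2 ratio of -0.75. The log2 ratios of ZNF622 and ZNF195, next in order, were -0.43 and -0.41.

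Few genes differed between DE and PGT. In PGT 6 were at least 2-fold higher and 8 lower, beside 5% and 9.23% of all names at 20 TPM. After rescaling the counts were 7 and 5, beside 531 and 674 of the 8980 names. The rescaled split of the ZNF genes thus leaned the other way, whereas that of all names did not. ZNF578, a KRAB gene of chromosome 19, was at 4.63, 31.03, 7.59, 2.40, 0.93 and 1.69 TPM in stage order, and so was high in DE only. ZNF281, a factor of the pluripotency network, was at 43.2, 60.03, 26.6, 25.2, 14.97 and 20.97 TPM over the stages. ZNF268, ZNF101 and ZNF730 were also lower, with log2 ratios of -1.49, -1.46 and -1.38. The genes with the largest ratios in the other direction were ZNF503, ZNF3, ZNF765, ZNF821 and ZNF664, with log2 ratios between 1.02 and 1.16.

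**Figure D2:**
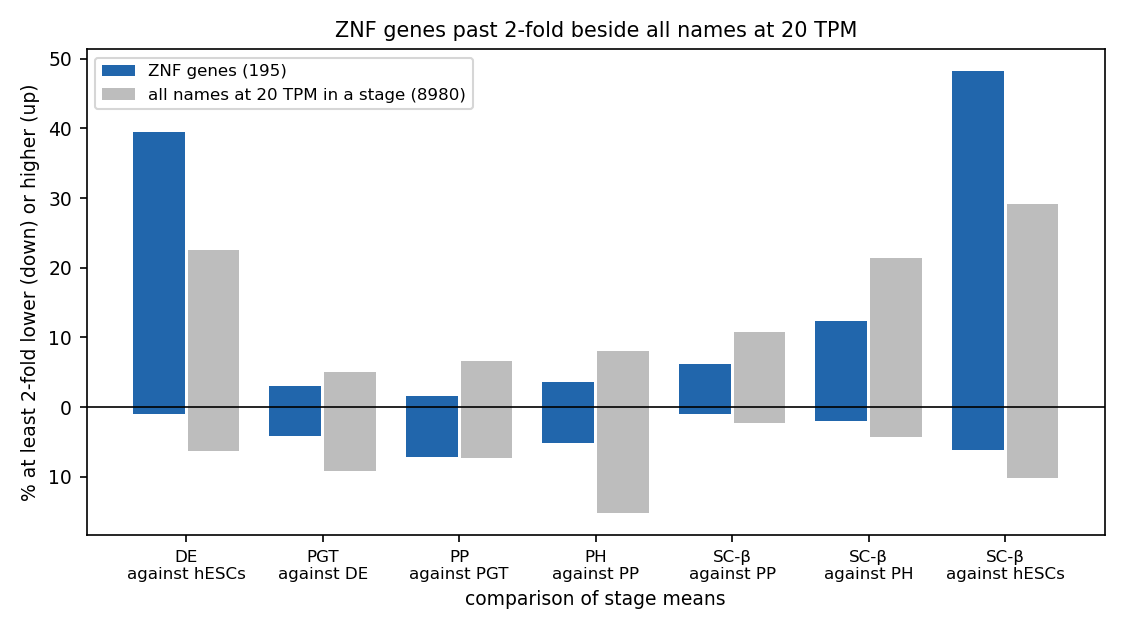
Bars give the percentage of the 195 ZNF genes (blue) and of the 8980 names at 20 TPM in a stage (grey) that were at least 2-fold higher (up) or lower (down) in each comparison of stage means, from TPM as deposited. The blue bar stands above the grey one upward in DE and in SC-β organoids against hESCs, at 39.5% and 48.2%, and below it elsewhere.

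From PGT to PP, chromosome 19 held nearly all of the ZNF genes at least 2-fold lower, although such genes were no more frequent than in the background. In PP 3 genes (1.54%) were at least 2-fold higher and 14 (7.18%) lower, beside 6.64% and 7.28% of all names. After rescaling the counts were 3 and 9, beside 662 and 561 of the 8980 names. Of the 14 that were lower, 13 lie on chromosome 19, which holds 89 of the 193 members with a position; after rescaling it held 8 of the 9. The exception was ZNF217 on chromosome 20, a corepressor-associated factor, at 40.8, 73.8, 99.7, 30.7, 15.1 and 17.01 TPM. The 3 higher genes, ZNF503, ZNF521 and ZNF268, lie on other chromosomes. The median log2 ratio was -0.43 for the 89 genes on chromosome 19 and -0.14 for the 104 on other chromosomes, beside -0.09 for all names at 20 TPM. After rescaling these medians were -0.35, -0.05 and -0.01.

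A single cluster accounted for 10 of the 14, and for 7 of the 9 after rescaling. It spans chr19:51571283-53580269 (GRCh38, positions from GENCODE version 44) and holds 43 ZNF names, of which 26 are members and 24 of those 26 matched the wider KRAB pattern. The summed TPM of the 26 was 417, 878, 865, 455, 358 and 506. In DE 24 of the 26 were above their hESCs level, much as 176 of the 195 members were, beside 6086 of the 8980 names. In PP 24 were below PGT, beside 147 of the 195 and 5284 of the 8980. In PH 21 were below PP, beside 101 of the 195 and 5770 of the 8980. The median log2 ratio of PP to PGT was -0.82 in this cluster and -0.20 for the other 169 members, or -0.73 and -0.12 after rescaling. Without the cluster, 4 genes were at least 2-fold lower in PP and 3 higher, or 2 and 3 after rescaling. The cluster was singled out after its values were seen. Its 17 ZNF names that are not members, being under 20 TPM throughout, were lower in PP than in PGT in 14 cases, 2 of them by at least 2-fold. Over all 531 ZNF names 354 were lower in this step, 23 of them by at least 2-fold. Of the 17, 15 were at 1 TPM or more in PGT or PP.

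ZNF761 had the highest level of the cluster. It lies at chr19:53431984-53461862 on the forward strand and was at 31.5, 62.1, 127, 31.3, 9.35 and 15.2 TPM across the 6 stages. It was thus highest in PGT and lowest in PH. ZNF765 was at 23.1, 28.7, 62.6, 15.2, 8.94 and 14.1 TPM in stage order, with its top also in PGT. ZNF600 was at 20.98, 27.7, 34.4, 9.88, 1.95 and 9.62 TPM over the stages, and ZNF525 at 13.99, 22.7, 23.2, 6.33, 3.70 and 8.96 TPM. These genes were lower in SC-β organoids than in hESCs. ZNF845 was at 20.6, 18.9, 9.37, 4.62, 3.37 and 6.65 TPM across the 6 stages, highest in hESCs and lower at each stage up to PH, and ZNF813 was at 17.7, 43.7, 25.5, 11.8, 3.94 and 8.17 TPM in stage order.

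Not all of the cluster shared that course. ZNF83, in which no KRAB pattern was found, was at 23.9, 69.8, 63.3, 58.00, 67.5 and 78.7 TPM over the stages, staying high after DE. ZNF880, a KRAB gene at chr19:52369917-52385795, was at 2.06, 8.61, 14.7, 11.9, 26.03 and 30.2 TPM, highest in SC-β organoids. The 26 ran from -1.50 for ZNF845 to 3.35 for ZNF880 in the log2 ratio of SC-β organoids to hESCs, with 5 at least 2-fold lower and 4 higher, or 10 and 4 after rescaling. Across the 6 stage means the median Pearson r between pairs of genes was 0.59 in the cluster and 0.41 among all 195, over points that share libraries and scaling. Other clusters of chromosome 19 with 5 or more members gave 0.67, 0.56, 0.52, 0.26 and -0.38, so a value of this size was not particular to it. Genes of this cluster are close paralogs and some overlap: 14 of the 195 members overlap another ZNF gene on the same strand, and reads of such genes could have been split between them, so single values here are uncertain.

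**Figure D3:**
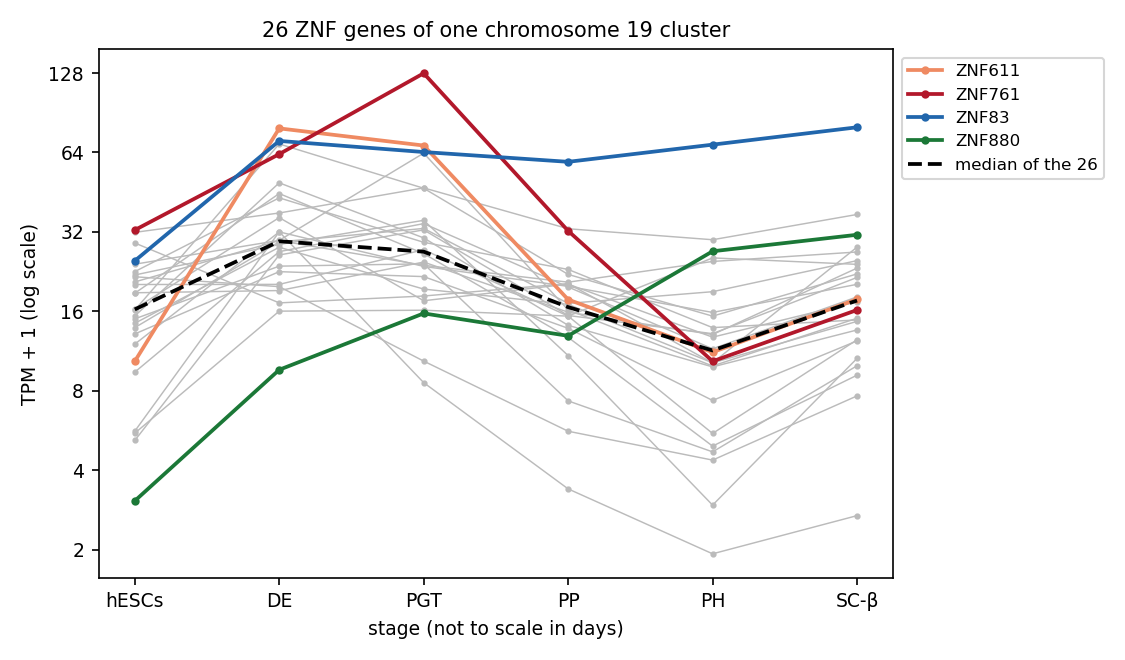
Each line is 1 of the 26 well-expressed ZNF genes of the cluster at chromosome 19, with TPM + 1 on a log scale against stage; the dashed line is their median and 4 genes are coloured. The median is highest in DE and lowest in PH, ZNF761 and ZNF611 drop from PGT to PP, and ZNF83 and ZNF880 stay within 2-fold there.

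Some promoters of this cluster share sequence. The following are the 250 bases before the transcription start of ZNF761, ZNF845 and ZNF83, from RefSeq on GRCh38.p14, read 5′ to 3′ on the strand of the gene, with CG dinucleotides in capitals. They are shown because the genes differ in the step from PGT to PP, with log2 ratios of -1.98, -0.88 and -0.12. ZNF761 is chr19:53431734-53431983, ZNF845 is chr19:53333499-53333748 and ZNF83 is chr19:52690497-52690746 on the reverse strand.
ZNF761: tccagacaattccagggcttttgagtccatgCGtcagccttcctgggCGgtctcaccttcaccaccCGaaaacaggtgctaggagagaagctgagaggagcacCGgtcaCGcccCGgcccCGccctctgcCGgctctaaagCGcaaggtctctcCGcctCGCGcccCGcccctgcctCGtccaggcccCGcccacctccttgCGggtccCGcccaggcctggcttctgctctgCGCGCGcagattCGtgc
ZNF845: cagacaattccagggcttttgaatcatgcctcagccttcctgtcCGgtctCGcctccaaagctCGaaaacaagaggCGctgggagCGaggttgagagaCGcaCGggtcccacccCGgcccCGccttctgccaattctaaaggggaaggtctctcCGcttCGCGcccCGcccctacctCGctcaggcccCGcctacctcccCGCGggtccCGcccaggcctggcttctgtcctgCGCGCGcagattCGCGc
ZNF83: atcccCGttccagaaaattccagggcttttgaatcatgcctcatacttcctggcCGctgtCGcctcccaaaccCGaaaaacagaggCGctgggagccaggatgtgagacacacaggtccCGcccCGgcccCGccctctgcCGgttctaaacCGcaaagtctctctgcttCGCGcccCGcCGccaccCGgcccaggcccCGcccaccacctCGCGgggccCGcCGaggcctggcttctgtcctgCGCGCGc
The 3 sequences hold 21, 23 and 23 CG dinucleotides. The longest run that all 3 share is 17 letters, aattccagggcttttga, which occurs on either strand in 9 of 27305 promoters of this length and in 6 of the 20 members of the cluster that had a promoter entry. The 3 promoters that defined this run are in both counts, and over all ZNF names of the cluster, members or not, it was in 6 of 32. All 20 promoters of the cluster's members hold at least 10 CG dinucleotides, as do 85.5% of the 165 members with an entry and 51.9% of all promoters. Searched on both strands, the letters ACTACAATT of the ZNF143 motif were in 3.64% of the members' promoters and 0.355% of all, the letters GCGCATGCG of the NRF1 motif in 4.24% and 1.78%, and the letters AAGATGGCG of the YY1 motif in 1.21% and 0.641%. Neither the ZNF143 nor the NRF1 letters were in any of the 20 cluster promoters. The promoters and motifs were chosen after the values were seen, and the matches are a description.

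Some other clusters on chromosome 19 had a similar course. Runs of 5 or more ZNF genes at most 250 kb apart gave 12 clusters on chromosome 19, with 83 members of 232 ZNF names, and 10 clusters elsewhere with 24 members. The cluster at chr19:19668796-22010949 held 15 members of 23 names, whose summed TPM was 312, 708, 512, 360.5, 288 and 408. All 15 were higher in DE than in hESCs, beside 176 of the 195 members and 6086 of the 8980 names. By at least 2-fold 9 were higher (6 after rescaling), beside 39.5% of the members and 22.5% of the names. In PP 14 were lower than in PGT, beside 147 of the 195 and 5284 of the 8980. In PH 11 were lower than in PP, beside 101 of the 195 and 5770 of the 8980. The summed TPM put the stages in the same order as in the cluster with ZNF761. The 7 members at chr19:9140397-9793180 were also all lower in PP than in PGT. The most abundant gene of the cluster at chr19:19668796-22010949, ZNF90, was at 56.5, 143, 65.6, 23.3, 8.93 and 23.99 TPM across the 6 stages. ZNF101, the gene of that same cluster with the lowest ratio of SC-β organoids to hESCs, was at 22.7, 30.97, 10.6, 7.55, 3.83 and 8.72 TPM in stage order.

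The cluster nearest the end of the long arm, at chr19:57191500-58481230, held 16 members of 43 names and was highest in SC-β organoids. Its summed TPM was 287, 432, 403, 313, 309.9 and 497. In PP 13 of the 16 were below PGT, beside 147 of the 195 members and 5284 of the 8980 names. None of the 16 was lower by 2-fold, beside 7.18% of the members and 7.28% of the names. In SC-β organoids 6 of the 16 (37.5%) were at least 2-fold above hESCs and none below, beside 29.2% and 10.2% of all names and 48.2% of the members above, and 2 of the 16 after rescaling. ZNF587 and ZNF417, paralogs known for repressing HERV-K elements, belong to it: ZNF587 was at 18.1, 37.7, 42.5, 26.4, 15.99 and 48.1 TPM over the stages, and ZNF417 at 9.72, 20.3, 23.9, 14.5, 12.1 and 23.2 TPM. ZNF587B was at 33.5, 41.4, 30.1, 19.9, 6.59 and 34.1 TPM across the 6 stages, lowest in PH. The 5 members at chr19:23075210-24129968, by contrast, did not move together, with a median r of -0.38 between pairs. Among them ZNF91 was highest in PH and ZNF730 lowest there.

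The share of ZNF names that were well expressed differed among the clusters. It was 65.2% in the cluster that holds ZNF90 and 60.5% in the one that holds ZNF761, but 12% at chr19:36182276-37817300 and 11.1% at chr19:11483427-12640098. In the last, 3 of 27 names were members. The clusters at chr19:2819868-2944971 and chr19:56087366-56671783 had no member.

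In PH 7 members were at least 2-fold higher than in PP and 10 lower, and all 10 lower genes lie on chromosome 19, as do the 8 after rescaling. The background was 8.11% and 15.2% of all names. The rescaled counts of the members were 11 and 8, beside 951 and 973 of the 8980 names. The median log2 ratio of the members was -0.04 and became 0.17. ZNF536, known for restraining neuronal differentiation, was at 0.00991, 0.0958, 0.0833, 0.299, 26.1 and 8.66 TPM in stage order, and was detected above 1 TPM in PH and SC-β organoids only. ZNF292 was at 18.8, 32.6, 24.8, 12.8, 57.4 and 50.6 TPM over the stages. ZNF91, which represses SVA retrotransposons, was at 22.4, 44.4, 50.5, 30.3, 82.7 and 40.2 TPM, with its top in PH. ZNF821 and ZNF711 were also higher, with log2 ratios of 1.09 and 1.08. The lower genes included ZNF600, ZNF730, ZNF761, ZNF468 and ZNF587B, at log2 ratios between -1.88 and -1.46. The 5 neural progenitor markers moved with PH as well, summing to 177 TPM there and 13.7 TPM at PP, with HES5 at 109.8 TPM in PH. The mesenchymal sum went from 60.3 to 474 TPM, of which COL3A1 alone gave 349 TPM in PH. TWIST1, COL1A1 and PRRX1 of that list were also higher in PH, whereas ACTA2 was lower, at 15.2 TPM in PP and 3.57 TPM in PH. The part of the cells behind these markers was not tested.

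In SC-β organoids 12 genes were at least 2-fold higher than in PP and 2 lower, beside 10.8% and 2.31% of all names. The balance turned with the scale to 3 higher and 4 lower after rescaling, beside 652 and 361 of the 8980 names. ZNF536, ZNF292, ZNF880, ZNF559 and ZNF140 were highest in ratio, at log2 ratios of 2.89, 1.90, 1.27, 1.26 and 1.25. The 2 lower genes were ZNF48, at 9.28, 16.5, 24.5, 20.2, 29.4 and 6.26 TPM across the 6 stages, and ZNF219, at 16.2, 20.5, 29.9, 32.6, 26.7 and 14.3 TPM in stage order. Both were higher in PP than in hESCs.

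Against PH, 24 genes were at least 2-fold higher in SC-β organoids and 4 lower, beside 21.4% and 4.31% of all names. After rescaling there were 8 higher and 10 lower, beside 938 and 737 of the 8980 names. The median log2 ratio of the members passed from 0.41 to -0.06. ZNF587B and ZNF600 had the largest ratios upward, at 2.21 and 1.85, and both were lower in PH than in PP. ZNF600 was at 9.62 TPM in SC-β organoids, near its 9.88 TPM in PP, and ZNF587B was above its PP level. ZNF814, ZNF519 and ZNF552 followed, with log2 ratios between 1.56 and 1.68. The 4 lower genes were ZNF48, ZNF821, ZNF536 and ZNF91. These comparisons share the SC-β, PP and PH means, so their counts are not independent.

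Over the whole course, SC-β organoids held 94 genes (48.2%) at least 2-fold above hESCs and 12 below. Among all names at 20 TPM 29.2% were higher and 10.2% lower. After rescaling the counts were 49 and 23 for the ZNF genes, a more even split, and 1653 and 1859 for the 8980 names. The median log2 ratio was 0.95, and 0.47 after rescaling, beside 0.35 and -0.14 for all names. Only 58 of the 195 reached 20 TPM in hESCs and 146 did in SC-β organoids, so many were included through a later stage. Of the 31 genes at 20 TPM in every stage, 6 were higher and 1 lower, or 3 and 3 after rescaling. Among the 3264 names of that kind 336 were higher and 271 lower, or 99 and 771 after rescaling. The median of the 31 was 0.31, and -0.20 after rescaling, beside 0.04 and -0.47 for those names.

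Beside ZNF680, the largest ratios belonged to ZNF503, ZNF521, ZNF562, ZNF37A, ZNF558, ZNF436, ZNF880, ZNF704 and ZNF536, with log2 ratios between 3.26 and 4.76. ZNF37A was at 1.21, 13.97, 15.6, 14.1, 13.5 and 27.7 TPM over the stages. ZNF436 was at 1.34, 10.2, 9.48, 13.2, 21.2 and 23.5 TPM. Both are KRAB genes outside the clusters and were highest in SC-β organoids. At the other end were ZNF483, ZNF845, ZNF121, ZNF101, ZNF217, ZNF90, ZNF578, ZNF600, ZNF398 and ZNF813, with log2 ratios between -1.57 and -1.03. ZNF121 was at 119, 90.3, 62.5, 42.4, 23.7 and 46.9 TPM across the 6 stages, lower at each stage up to PH.

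Among members without a KRAB box, a list of 16 developmental regulators was well represented, with 15 members. In SC-β organoids 11 of the 15 were at least 2-fold above hESCs and 2 below, with a median log2 ratio of 1.54, beside 29.2% and 10.2% of all names. After rescaling the counts were 8 and 2 and the median 1.06. ZNF503, ZNF521, ZNF536 and ZNF704 were under 20 TPM up to PGT and entered the set only through the later stages, where they are high. ZNF503, a repressor of the NET family with roles in brain and limb development, was at 0.0489, 0.235, 1.75, 16.7, 17.8 and 27.4 TPM in stage order. ZNF521, a cofactor in neural and haematopoietic progenitors, was at 1.93, 17.1, 8.93, 40.6, 40.9 and 41.9 TPM over the stages. Both appeared at a high level between PGT and PP and stayed high. ZNF704 was at 2.58, 6.56, 13.5, 20.4, 21.3 and 34.9 TPM, higher at each stage. ZNF423, a partner of SMAD and EBF factors known in adipocyte precursors and neurons, was at 11.7, 19.05, 14.1, 20.3, 35.7 and 48.8 TPM across the 6 stages, and ZNF462, a gene of neural development, at 26.6, 34.8, 31.96, 49.2, 65.4 and 68.1 TPM in stage order.

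ZNF217 and ZNF281 were the 2 of the list that were lower in SC-β organoids than in hESCs by at least 2-fold, and both stood above their hESCs level in DE. ZNF608 was at 37.9, 122, 96.1, 67.5, 74.8 and 56.1 TPM over the stages, highest in DE. ZNF609, ZNF148, ZNF516, ZNF362 and ZNF384 were each higher in DE than in hESCs by at least 2-fold, of which ZNF516 alone stayed past it after rescaling, and ended at 39.7, 22.9, 24.97, 30.6 and 38.5 TPM in SC-β organoids. Beside the levels of ZNF503, ZNF521 and ZNF423 stand the 5 mesenchymal markers, which did not share a course from PP through PH to the organoids. TWIST1 was at 9.40, 25.9 and 89.7 TPM, and COL3A1 and PRRX1 were also higher at each of these stages. ACTA2 was at 15.2, 3.57 and 73.1 TPM, and COL1A1 at 4.46, 42.9 and 34.1 TPM. ZNF521 itself was nearly level over these stages. The part of other cell types in these levels was not tested.

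**Figure D4:**
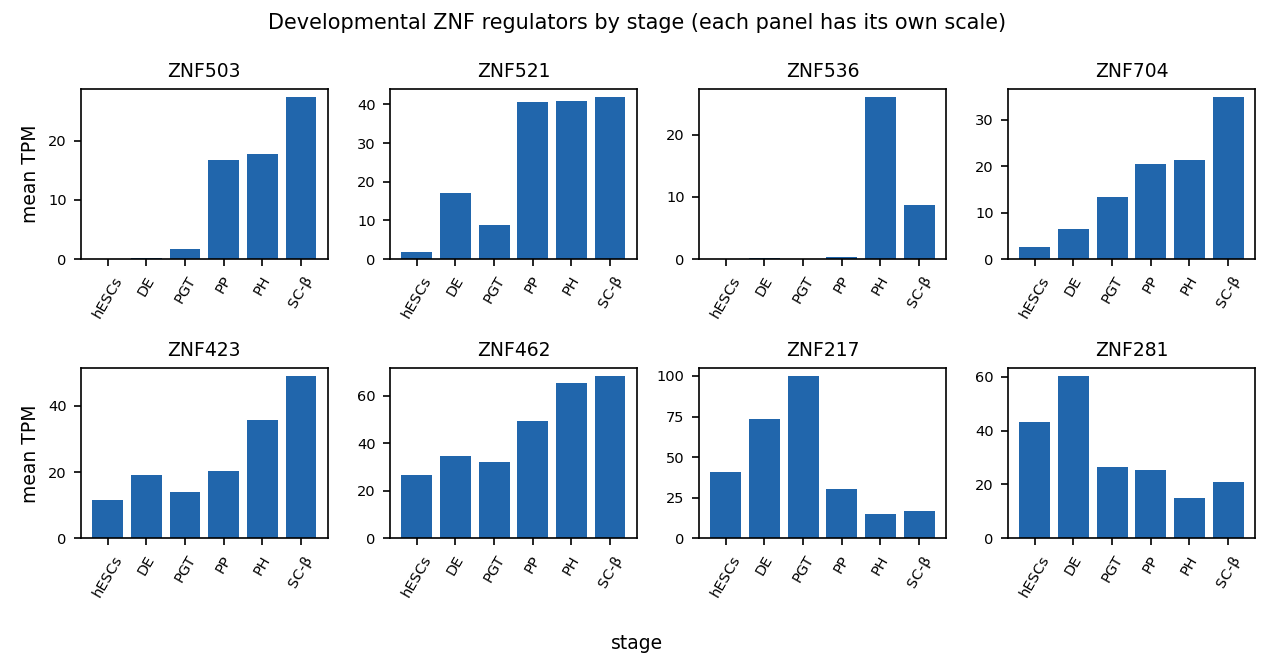
Bars give the authors' mean TPM at each stage for 8 developmental ZNF regulators, each panel with its own axis from 0. ZNF503 and ZNF521 are high from PP on, ZNF536 is present in PH and SC-β organoids, ZNF704, ZNF423 and ZNF462 are highest in SC-β organoids, and ZNF217 and ZNF281 peak in PGT and DE.

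Regulators of chromatin among the members were present at all stages. ZNF143, a promoter-bound activator linked to chromatin looping, was at 35.8, 33.8, 40.9, 40.9, 23.5 and 28.3 TPM, and its paralog ZNF76 at 7.87, 24.5, 20.4, 29.7, 18.5 and 25.9 TPM across the 6 stages. ZNF410, known for activating CHD4, was at 12.5, 23.7, 21.7, 26.3, 29.4 and 32.4 TPM in stage order, with CHD4 itself between 136 TPM in hESCs and 203 TPM in DE. Of the partners of the H3K9 methyltransferases G9a and GLP, ZNF644 was at 50.95, 72.8, 87.1, 59.5, 63.6 and 57.3 TPM over the stages. ZNF518B was at 9.51, 45.7, 57.1, 44.3, 38.6 and 36.3 TPM, at least 2-fold higher in DE than in hESCs, whereas ZNF518A was within 2-fold in every comparison. ZNF532, a partner of ZMYND8, was at 81.6, 99.5, 65.9, 64.8, 109 and 95.4 TPM across the 6 stages, and was the highest of the members in PH after ZNF207 and ZNF638. ZNF445, which maintains imprints with ZFP57, was at 8.99, 25.8, 27.6, 18.3, 15.7 and 30.1 TPM in stage order.

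The repressors of retroelements gave 6 members of a list of 7. ZNF93, which targets LINE-1, was at 46.2, 68.9, 41.1, 35.7, 21.5 and 41.7 TPM over the stages, highest in DE and lowest in PH. ZNF649 was at 15.2, 67.9, 45.8, 21.1, 14.4 and 21.2 TPM, and ZNF846 at 4.34, 21.03, 22.7, 14.2, 7.91 and 24.7 TPM across the 6 stages. In DE 3 of the 6 were at least 2-fold above hESCs, beside 22.5% of all names, and the median log2 ratio was 1.00; after rescaling 2 were, with a median of 0.55. In SC-β organoids 3 of the 6 were at least 2-fold higher than in hESCs and none lower, beside 29.2% and 10.2%, and after rescaling 1 was higher. The level in PH was below that in PP for ZNF93, ZNF649, ZNF417, ZNF587 and ZNF846, and above it for ZNF91.

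The RNA-binding, ribosomal and spindle proteins included some of the steadiest and most abundant members. ZNF638, known for splicing and for silencing unintegrated viral DNA, was at 74.1, 192, 201, 182, 203 and 228 TPM in stage order. ZNF207, a kinetochore and microtubule protein, was at 113, 134, 114, 100.0, 127 and 106 TPM over the stages, within 2-fold throughout. Of the 7 members of this list, 3 were at least 2-fold above hESCs in SC-β organoids (ZNF638, ZNF326 and ZNF346) and none below, beside 29.2% and 10.2% of all names. After rescaling 1 was above, ZNF638, and 1 below, ZNF622. ZNF622, a ribosome biogenesis factor, was at 36.1, 26.6, 27.1, 21.1, 26.1 and 20.3 TPM, and was highest in hESCs. Of the 6 members of a SCAN domain list, ZNF483 alone was past 2-fold in SC-β organoids against hESCs, and 2 were after rescaling, both lower.

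The highest level of any member was that of ZNF124, a KRAB gene of chromosome 1, at 32.5, 153, 270.2, 143, 93.3 and 146 TPM across the 6 stages. ZNF664 was at 13.1, 68.5, 140.4, 89.2, 73.1 and 69.1 TPM in stage order, also with its top in PGT. ZNF146, a protein made almost only of fingers, was at 119, 109, 118, 66.1, 62.2 and 90.6 TPM over the stages. Across the 6 stages 42 of the 195 (21.5%) stayed within 2-fold, beside 27.3% of all names at 20 TPM. After rescaling 63 of the 195 did, and no share of all names is given on that scale. ZNF22 was the steadiest at 35.04, 38.6, 41.6, 34.4, 33.6 and 41.1 TPM, a span of 1.23-fold. ZNF227, ZNF277, ZNF286A, ZNF207, ZNF639, ZNF317, ZNF282, ZNF677 and ZNF106 followed, with spans up to 1.46-fold.

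Members with and without a KRAB box were compared by their medians. The pattern fixed for the KRAB box matched 85 of 190 members with a translated protein, but it missed known KRAB proteins such as ZNF91. A wider pattern, set in 2 steps after this was seen, matched 106 and is still a lower limit. In SC-β organoids against hESCs the median log2 ratio was 0.84 for the 85 and 1.05 for the other 105, or 0.89 and 1.08 with the wider pattern. The groups lay further apart from PGT to PP, where the medians were -0.39 and -0.15. In that step 12 of the 85 were at least 2-fold lower against 2 of the 105, beside 7.28% of all names. After rescaling the counts were 7 and 2, beside 561 of the 8980 names. With the wider pattern, the median there was -0.44 for the 76 KRAB genes on chromosome 19 and -0.22 for the 30 on other chromosomes. Of those 76, 13 were at least 2-fold lower (8 after rescaling), and none of the 30 was. The same 13 were all of the lower genes among the 89 members on chromosome 19, and 10 of them lie in the cluster with ZNF761. Chromosome, KRAB box and cluster thus overlap in this count, and their parts were not tested. The median number of C2H2 fingers was 12 in the 106 and 8 in the others, and the lowest was 2 and 0.

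The cofactors of KRAB proteins were present at every stage, and 10 of 20 stayed within 2-fold throughout, beside 27.3% of all names at 20 TPM in a stage. Most of the 20 were at 20 TPM in every stage, and among the 3264 names of that kind the share was 47.5%, near that of the cofactors. TRIM28 was at 331, 322, 248, 209.7, 183 and 253 TPM across the 6 stages. SETDB1 was at 28.2, 58.1, 60.7, 57.1, 66.8 and 57.8 TPM in stage order, and ATF7IP, its stabilising partner, at 32.3, 108, 95.8, 53.2, 49.3 and 55.5 TPM over the stages. Of the 20, 4 were at least 2-fold higher in DE than in hESCs and none lower, and 4 were higher in SC-β organoids. Both counts are 20%, under the 22.5% and 29.2% of all names but above the 9.16% and 10.3% of names at 20 TPM in every stage. After rescaling 2 were higher in DE, and 1 was higher and 1 lower in SC-β organoids. CHD3, a remodeller of the NuRD complex, was at 4.99, 41.9, 29.7, 55.5, 138 and 96.9 TPM, the widest range of the 20. From PGT to PP, where the chromosome 19 cluster was lower, 1 cofactor was at least 2-fold lower, TRIM24, and none after rescaling, and TRIM28 had a log2 ratio of -0.24. Zinc finger genes under other names were counted in the first step as well, where 22.5% of all names were higher. Of 13 ZBTB genes that reached 20 TPM out of 41, 6 were at least 2-fold higher in DE than in hESCs and none lower, and of 9 ZFP genes out of 22, 3 were higher and 1 lower. After rescaling 3 ZBTB genes were higher, and of the ZFP genes none was higher and 1 lower. Of 6 ZSCAN genes 3 were higher and none lower, and 1 and 1 after rescaling.

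The limit of 20 TPM cut through a continuous range. Just inside it were ZNF232, with a highest level of 20.1 TPM, ZNF529 with 20.1 TPM and ZNF407 with 20.2 TPM. Just outside were ZNF263 with 19.97 TPM, ZNF273 with 19.95 TPM and ZNF429 with 19.92 TPM. Of the 336 ZNF names that were left out, 160 reached 10 TPM in a stage and 43 stayed under 1 TPM at every stage.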

How the data were processed

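Total RNA was extracted with Trizol and sequenced as paired-end reads of 50 bp; the labels name both ribosomal RNA removal (RiboMinus) and a TruSeq Stranded mRNA kit. The authors aligned reads to hg38 with HISAT2 2.2.0 and computed TPM with StringTie 2.1.6, and the deposited table holds the mean TPM of the 2 replicates per stage. The annotation is not given in the sources used here. All other assays are not analysed here, and 0 further columns of samples were left out.

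Here 50451 entries were summed by name, the highest stage value of each name compared with a limit of 20 TPM, and ratios formed with a pseudocount of 1 TPM. Means without replicates permit no test. Members were placed with GENCODE version 44 (193 of 195, 1 of them by a RefSeq synonym). Of the 193, 190 are annotated as protein coding and 3 as pseudogenes. KRAB and finger patterns were read from translated GENCODE coding sequences, since no protein table was given. The KRAB pattern was E, W, 2 residues, L, 3 to 4 residues, R or K, 1 residue, L, then Y, H or F within 1 residue. The wider one was E, W or L, 2 residues, L, 5 to 8 residues, Y, H or F, 2 residues, V, M. It was widened in 2 steps after the first was seen to miss known KRAB proteins. The members and lists were chosen with earlier results of these data known. Genes were named by rule: the 10 largest ratios each way in SC-β organoids against hESCs, 5 in other comparisons, the 10 most abundant, the 10 steadiest, the extremes of chromosome 19 clusters, the edges of the limit and the role lists; not all are printed. ZNF83 was picked after its values were seen. The alternatives were another pseudocount (0.1), rescaling, totals without structural RNAs, other folds, limits and gaps. Calculations were tested on simulated data. Python 3.11.15, numpy 2.4.6, pandas 2.3.3 and matplotlib 3.10.9 were used.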

Additional observations from a re-analysis of the deposited data

How the results depend on the processing

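Of 135 values recomputed under alternatives, 72 stayed within 1.5 times the main count, or close to the main median, and 63 moved; the KRAB medians kept their sign. No paired analysis was possible because the table holds a mean per stage and no value per replicate, so leaving out single replicates was not run either. The pseudocount of 0.1 TPM, the highest entry of a shared name and the other gaps between cluster genes moved no value past that limit. Rescaling turned the split of higher against lower genes in PGT against DE, in PH against PP, and in SC-β organoids against PP and against PH. TPM keeps no counts, so what depth limits cannot be said, and the lowest values rest on an unknown number of reads.

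Median-ratio rescaling gave 42 genes higher in DE than in hESCs, 5 lower in PGT than in DE, 9 lower in PP than in PGT, and 11 higher in PH than in PP. It gave 3 higher and 4 lower in SC-β organoids against PP, 8 and 10 against PH, and 49 and 23 against hESCs. It put the highest level in hESCs for 25 genes, DE for 28, PGT for 44, PP for 8, PH for 66 and SC-β organoids for 24, and the medians of SC-β organoids against hESCs at 0.35 with and 0.54 without the fixed KRAB pattern. Totals without structural RNAs gave 9 lower in PP than in PGT, 13 higher in PH than in PP, 4 lower in SC-β organoids than in PP, and 9 higher and 7 lower than in PH; the highest stage was PP for 10 genes, PH for 62 and SC-β organoids for 40. Without PH, 8 genes were highest in PP.

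At 1.5-fold, 121 genes were higher in DE than in hESCs, 19 higher and 27 lower in PGT than in DE, 6 and 46 in PP than in PGT, and 22 and 43 in PH than in PP. In SC-β organoids 47 were higher and 6 lower than in PP, 66 and 7 than in PH, and 21 lower than in hESCs, and 11 genes stayed within 1.5-fold. With 355 members from 10 TPM, 127 were higher in DE, 13 higher and 14 lower in PGT, 22 lower in PP, 17 higher and 16 lower in PH, each against the stage before. SC-β organoids held 26 higher than PP, 48 than PH and 161 than hESCs, 87 genes stayed within 2-fold, and the median without the KRAB pattern was 0.91. With all 531 names, the counts higher and lower were 159 and 5 in DE, 14 and 18 in PGT, 6 and 23 in PP, 19 and 25 in PH, and 39 and 5 in SC-β organoids against PP. SC-β organoids held 67 higher than PH and 224 than hESCs, and 164 names stayed within 2-fold. These last settings change the number of genes or the threshold by construction. Both rescalings multiply all genes of a stage by a common factor.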
